A study of Drosophila melanogaster with 4 samples.

Results

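The small heat-shock proteins and stress chaperones of the *Drosophila* ovary were followed here through 9 genes, taken by symbol out of the 17023 genes counted in each library. They were *Hsp22*, *Hsp23*, *Hsp26*, *Hsp27*, *Hsp67Ba*, *Hsp67Bc*, *Hsp68*, *Hsp83* and *Hsf*. The tested ovaries were *UAS-Dicer2;NosGAL4* > *bam* RNAi; *aramis* RNAi, and they were set against ovaries of *UAS-Dicer2;NosGAL4* > *bam* RNAi, with 2 libraries of each genotype. Both genotypes therefore carried the *bam* RNAi construct, the Dicer2 transgene and a GAL4 driver under *nanos* control, which is active in the germline, and differed by the *aramis* RNAi construct. Poly(A)-selected RNA came from whole ovaries of yeast-fed flies dissected 1 to 3 days after eclosion, so germline and somatic cells were measured together. No ovaries without RNAi and no heat-shocked ovaries were analysed here, and the labels do not say how many flies went into a library or whether replicates came from separate crosses, so p-values measure the spread between these libraries, which may be technical.

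Heat-shock proteins are chaperones that hold or refold proteins that have lost their shape. Under heat or other protein-damaging stress, the transcription factor Hsf forms trimers on heat-shock elements in the promoters of these genes and raises their transcription. A subset does not wait for stress: in the ovary of unstressed flies, *Hsp26*, *Hsp27* and *Hsp83* are transcribed as part of normal development, in the nurse cells among others, and their mRNAs are loaded into the egg. The developmentally expressed genes *Hsp26*, *Hsp27* and *Hsp83* were therefore compared, library by library, with *Hsp22*, *Hsp23*, *Hsp67Ba*, *Hsp67Bc* and *Hsp68*, the genes grouped here as heat-inducible (stress-only). *Hsp23*, *Hsp67Ba*, *Hsp67Bc* and *Hsp68* had counts in every library, although the labels name no heat shock. The name stress-only is therefore a label for the group and not a result.

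Total counts lay between 11882367 and 13348602 per library, so that a floor of 3 counts was worth between 0.225 and 0.252 CPM (counts per 1000000 counts of the library), covering counting error only. The targeted gene *aramis*, listed as *ais*, had 149 and 161 counts in *bam* RNAi; *aramis* RNAi, against 454 and 507 counts in *bam* RNAi (log2 fold change -1.37, SE 0.11, edgeR adjusted p = 3.3e-04). With libraries scaled on germline markers, as described below, *ais* was at 0.15 (edgeR adjusted p = 0.277). A fall of *ais* beyond that of the germline markers was thus not called. The gene *bam* had 16 and 17 counts in *bam* RNAi; *aramis* RNAi and 35 and 25 counts in *bam* RNAi. Its change was not called (log2 fold change -0.61, SE 0.42, edgeR adjusted p = 0.262). Levels of cell type markers also differed between the genotypes. Among all genes tested, 25.4% were called higher and 25.0% lower (edgeR adjusted p under 0.05), and the marker calls stand beside these shares. Of 15 germline markers 14 fell and *tud* rose (median -1.54), with summed levels of 1341 to 1605 CPM in *bam* RNAi; *aramis* RNAi and 2854 to 2890 CPM in *bam* RNAi. Of 14 markers of somatic ovary cells 7 rose and 2 fell (median 0.51), and 8 of 8 measured muscle sheath markers rose (median 0.95). Of 6 hemocyte and fat body markers 5 rose (median 1.68), with summed levels of 2439 to 2866 CPM in *bam* RNAi; *aramis* RNAi and 818 to 974 CPM in *bam* RNAi. Of 9 egg chamber markers, mostly eggshell and yolk genes, 8 fell and 1 was not called (median -4.12). Their sum was 3343 and 1480 CPM in replicates 1 and 2 of *bam* RNAi; *aramis* RNAi. In replicates 1 and 2 of *bam* RNAi it was 7701 and 29491.5 CPM. Both *bam* RNAi libraries were thus above both *bam* RNAi; *aramis* RNAi libraries in this sum, and the second *bam* RNAi library stood apart. None of the markers in these lists was at 0 in a library, and fewer cells of a type and less RNA per cell cannot be told apart in whole ovaries.

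The 3 developmentally expressed genes fell in *bam* RNAi; *aramis* RNAi ovaries, *Hsp26* by 1.27, *Hsp27* by 1.31 and *Hsp83* by 0.78 on the log2 scale; the difference between these genes was not tested. Of the heat-inducible genes, *Hsp68* fell, *Hsp23*, *Hsp67Ba* and *Hsp67Bc* were not called, and *Hsp22* had no counts. *Hsf* was slightly lower. In all, 5 of the 8 members that passed the filter on low counts were lower and 0 were higher at an adjusted p under 0.05 (edgeR quasi-likelihood test, Benjamini-Hochberg adjustment over all 9115 genes tested), with a median log2 fold change of -0.51 against -0.02 over all genes tested. Over all genes, 25.0% were called lower, 25.4% higher and 50.4% in either direction, so a call in this comparison is common. With each library left out in turn, fewer members were called, and fewer of all genes as well, as given at the end. In these fits the log2 fold change of *Hsp26* lay between -1.40 and -1.13 and that of *Hsp27* between -1.47 and -1.15. *Hsp83* lay between -0.86 and -0.70, *Hsp68* between -1.19 and -0.56 and *Hsf* between -0.27 and -0.21. By the unadjusted p under 0.05, *Hsp23* was the 1 member counted as higher, and DESeq2 called 0 members higher. These directions are relative to the bulk of all genes, and they turn round when the libraries are scaled on germline markers, as given below.

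**Figure D1:**
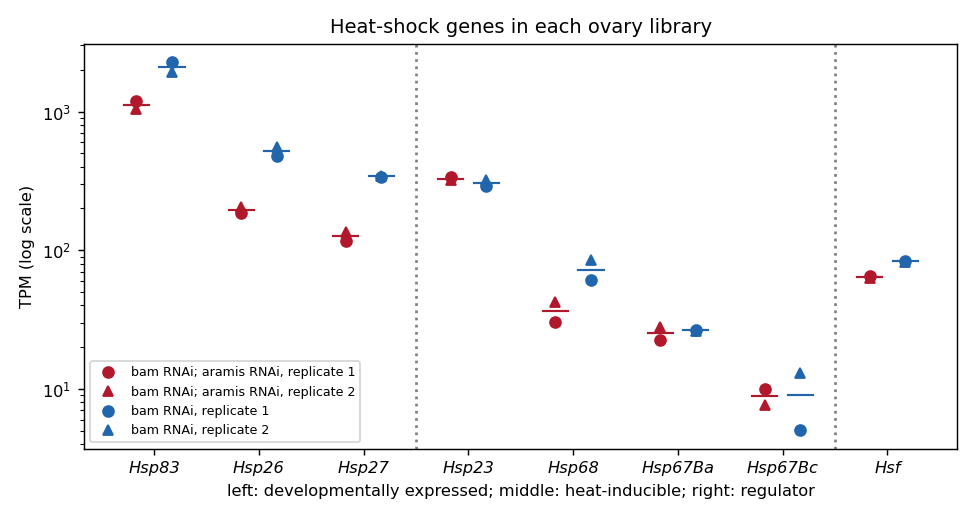
Level of 8 heat-shock genes in each library, in TPM on a log axis, with *bam* RNAi; *aramis* RNAi (red) left of *bam* RNAi (blue). Circles are replicate 1, triangles replicate 2 and bars the mean of the 2 libraries; *Hsp22*, with 0 counts in every library, is not drawn. *Hsp83*, *Hsp26*, *Hsp27*, *Hsp68* and *Hsf* lay apart between the genotypes (for *Hsp26*, 187 and 206 TPM against 479 and 552 TPM). *Hsp23*, *Hsp67Ba* and *Hsp67Bc* did not.

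*Hsp83* encodes the cytosolic Hsp90 chaperone of the fly, which matures kinases, hormone receptors and Argonaute proteins. The gene, FBgn0001233, lies on the plus strand of 3L from 3192969 to 3197059 (BDGP6, dm6 coordinates) with 2960 bases of exon, of which 15 overlap *CG14966* on the other strand. It was the most abundant member in every library. It had 16730 and 15990 counts in *bam* RNAi; *aramis* RNAi and 33746 and 33318 counts in *bam* RNAi. Divided by exon length, these are 1189 and 1049 TPM (transcripts per 1000000) in *bam* RNAi; *aramis* RNAi and 2261 and 1925 TPM in *bam* RNAi. Both *bam* RNAi; *aramis* RNAi libraries were below both *bam* RNAi libraries. The log2 fold change was -0.78 (SE 0.12, edgeR adjusted p = 0.00195), or 1.72 times lower. *Hsp83* took 0.141% and 0.129% of all counts in *bam* RNAi; *aramis* RNAi, against 0.279% and 0.250% in *bam* RNAi. Even at the lower level its TPM exceeded that of 99.1% to 99.2% of the 16647 genes with a length.

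*Hsp26* encodes a cytosolic small heat-shock protein of the alpha-crystallin family, which binds unfolding proteins without using ATP. It is listed as FBgn0001225 and lies on the minus strand of 3L from 9376418 to 9377427, within a cluster of 14184 bases that holds 6 of the 9 members: *Hsp67Bc*, *Hsp22*, *Hsp26*, *Hsp67Ba*, *Hsp23* and *Hsp27*. Calls differed along this cluster, with *Hsp26* and *Hsp27* lower and *Hsp67Ba* and *Hsp23*, which lie between them, not called; the difference between neighbours was not tested. Its counts were 896 and 1069 in *bam* RNAi; *aramis* RNAi, against 2440 and 3258 in *bam* RNAi. This corresponds to 187 and 206 TPM in *bam* RNAi; *aramis* RNAi (196 ± 13.4, SD, n = 2) and to 479 and 552 TPM in *bam* RNAi (515 ± 51.3, SD, n = 2). The groups did not overlap, and the difference between genotypes was larger than that between replicates. The log2 fold change was -1.27 (SE 0.13, edgeR adjusted p = 5.1e-04), 2.41 times lower.

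*Hsp27* encodes a small heat-shock protein that is found in the nucleus. It is listed as FBgn0001226 and lies on the plus strand of 3L from 9384063 to 9385694, with 1632 bases of exon, of which 49 overlap the pseudogene *CR43483* on the other strand, listed at 0 in every library. It had 908 and 1128 counts in *bam* RNAi; *aramis* RNAi and 2776 and 3282 counts in *bam* RNAi. These are 117 and 134 TPM in *bam* RNAi; *aramis* RNAi (126 ± 12.2, SD, n = 2), against 337 and 344 TPM in *bam* RNAi (341 ± 4.65, SD, n = 2). The genotypes did not overlap here either. Its log2 fold change, -1.31 (SE 0.11, edgeR adjusted p = 3.6e-04), was the lowest of the 8 members tested and differed from that of *Hsp26* by less than the standard error of either. *Hsp26* and *Hsp27* were called with each library left out in turn, whereas *Hsp83* was called in 3 of the 4 such fits (adjusted p = 0.0618 without *bam* RNAi replicate 1).

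Among the heat-inducible genes, *Hsp23* was the most abundant. It encodes a cytosolic small heat-shock protein, is listed as FBgn0001224, and lies on the plus strand of 3L from 9381882 to 9382765. It had 1414 and 1450 counts in *bam* RNAi; *aramis* RNAi and 1293 and 1658 counts in *bam* RNAi. At 336 and 319 TPM in *bam* RNAi; *aramis* RNAi and 290.1 and 321 TPM in *bam* RNAi, the 2 genotypes overlapped. The log2 fold change was 0.22 (SE 0.09, edgeR adjusted p = 0.0864), so no change was called. Its level in these ovaries, for which the labels name no heat shock, was above that of 96.9% to 97.4% of genes in all 4 libraries and higher than that of any other gene grouped as heat-inducible.

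*Hsp68* encodes an inducible member of the Hsp70 family, an ATP-driven chaperone. The gene, FBgn0001230, lies on the minus strand of 3R from 24055080 to 24057310. It had 323 and 488 counts in *bam* RNAi; *aramis* RNAi and 681 and 1103 counts in *bam* RNAi. As TPM, these are 30.5 and 42.5 in *bam* RNAi; *aramis* RNAi, against 60.5 and 84.5 in *bam* RNAi. The groups did not overlap, although replicates differed by 1.44-fold in *bam* RNAi; *aramis* RNAi and 1.47-fold in *bam* RNAi (CPM). The log2 fold change was -0.87 (SE 0.24, edgeR adjusted p = 0.0234). This call depended on the libraries used: the log2 fold change was -0.56 without *bam* RNAi replicate 2 (adjusted p = 0.257), -1.12 without *bam* RNAi replicate 1 (adjusted p = 0.0933) and -0.59 without *bam* RNAi; *aramis* RNAi replicate 1 (adjusted p = 0.112). The *bam* RNAi library with more *Hsp68* was the one with the high egg chamber markers, 29491.5 CPM against 7701 CPM, whereas of the *bam* RNAi; *aramis* RNAi libraries the one with more *Hsp68* had the lower sum of these markers, 1480 against 3343 CPM, and their part in the result was not tested.

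*Hsp67Ba* and *Hsp67Bc* encode further small heat-shock proteins, and the product of *Hsp67Bc* works with the cochaperone Starvin in clearing aggregated protein. *Hsp67Ba* (FBgn0001227, minus strand of 3L, 9377802 to 9379534) had 22.5 and 27.8 TPM in *bam* RNAi; *aramis* RNAi and 26.7 and 26.2 TPM in *bam* RNAi. Its log2 fold change was 0.06 (SE 0.17, edgeR adjusted p = 0.805). Of its 1733 exon bases, 1316 lie opposite the antisense gene *asRNA:CR43481*, which had 15 to 40 counts, and because the strand setting of the counting is not given in the sources used here, reads of the antisense gene cannot be told apart from those of *Hsp67Ba*. *Hsp67Bc* (FBgn0001229, minus strand of 3L, 9371511 to 9372497) was the lowest member with counts, at 47 and 39 counts in *bam* RNAi; *aramis* RNAi and 25 and 75 counts in *bam* RNAi. Its 2 *bam* RNAi libraries lay on either side of both *bam* RNAi; *aramis* RNAi libraries. Its log2 fold change was 0.07 (SE 0.48, edgeR adjusted p = 0.921), and it was -0.48 without *bam* RNAi replicate 1 and 0.96 without *bam* RNAi replicate 2.

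*Hsp22* encodes the small heat-shock protein of the mitochondrial matrix. It is listed as FBgn0001223 and lies on the plus strand of 3L from 9372931 to 9374964. It had 0 counts in the 2 *bam* RNAi; *aramis* RNAi libraries and in the 2 *bam* RNAi libraries, which at a floor of 3 counts allows up to 0.307 to 0.332 TPM in *bam* RNAi; *aramis* RNAi and 0.270 to 0.313 TPM in *bam* RNAi. However, all 1900 of its exon bases are shared, on the same strand, with *CG4456* (*Hsp67Bb* in older annotations), which had 1 and 0 counts in *bam* RNAi; *aramis* RNAi and 0 and 1 counts in *bam* RNAi. Some counting settings drop reads that fall on more than 1 gene, and the setting used is not given in the sources used here, so the zeros of *Hsp22* and *CG4456* are listed values and not evidence of absence. *Hsp22* was not tested.

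To compare the developmentally expressed with the heat-inducible genes within each library, their TPM were summed. *Hsp26*, *Hsp27* and *Hsp83* together had 1493 and 1389 TPM in *bam* RNAi; *aramis* RNAi, against 3077 and 2820 TPM in *bam* RNAi. The 5 heat-inducible genes together had 399 and 397 TPM in *bam* RNAi; *aramis* RNAi, against 382 and 445 TPM in *bam* RNAi. *Hsp22* entered this sum, and the ratio below, as 0, although its zeros are not evidence of absence. Only the developmental sum separated the genotypes, while the heat-inducible sum, most of it *Hsp23*, overlapped. The ratio of the 2 sums was 3.74 and 3.50 in *bam* RNAi; *aramis* RNAi (3.62 ± 0.17, SD, n = 2) and 8.05 and 6.34 in *bam* RNAi (7.20 ± 1.21, SD, n = 2). The groups did not overlap, but with 2 libraries per genotype the smallest two-sided p that an exact permutation test allows is 0.33, which is also the p of this ratio, so that test could not have passed 0.05, and no other test of the ratio was run. A ratio within a library does not depend on how libraries are scaled to each other, and it shows unequal change rather than which of the genes changed.

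The order of the members by TPM also differed. In *bam* RNAi; *aramis* RNAi it ran *Hsp83*, *Hsp23*, *Hsp26*, *Hsp27*, *Hsf* and *Hsp68* in both libraries. In *bam* RNAi it ran *Hsp83*, *Hsp26*, *Hsp27* and *Hsp23*, with *Hsf* above *Hsp68* in replicate 1 and *Hsp68* above *Hsf* in replicate 2. *Hsp67Ba*, *Hsp67Bc* and *Hsp22* were the last 3 in each library. The ratio of *Hsp26* to *Hsp23* was 0.555 and 0.645 in *bam* RNAi; *aramis* RNAi and 1.65 and 1.72 in *bam* RNAi. That of *Hsp27* to *Hsp23* was 0.348 and 0.421 in *bam* RNAi; *aramis* RNAi and 1.16 and 1.07 in *bam* RNAi, again without overlap. In contrast, *Hsp26* and *Hsp27* kept nearly the same ratio to each other, 1.59 and 1.53 in *bam* RNAi; *aramis* RNAi and 1.42 and 1.60 in *bam* RNAi. The ratio of *Hsp83* to *Hsp68* differed more between replicates than between genotypes, at 39.0 and 24.7 in *bam* RNAi; *aramis* RNAi and 37.3 and 22.8 in *bam* RNAi. The ratio of *Hsp68* to *Hsp23*, a pair within the heat-inducible group, was 0.091 and 0.133 in *bam* RNAi; *aramis* RNAi and 0.209 and 0.264 in *bam* RNAi, without overlap.

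**Figure D2:**
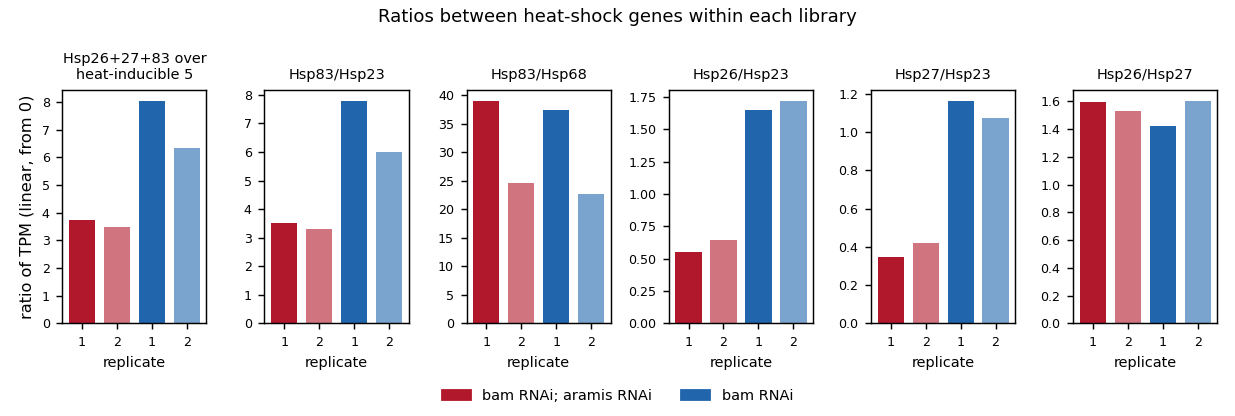
Ratios of TPM between heat-shock genes in each library, on linear axes from 0, with *bam* RNAi; *aramis* RNAi (red) left of *bam* RNAi (blue) and replicate 2 in the paler colour. The developmental to heat-inducible ratio was 3.74 and 3.50 in *bam* RNAi; *aramis* RNAi against 8.05 and 6.34 in *bam* RNAi, while *Hsp26* over *Hsp27* lay between 1.42 and 1.60 in all 4 libraries.

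The regulator *Hsf* (FBgn0001222), which lies on the minus strand of 2R from 18130303 to 18134634 with 4 annotated transcripts, was measured at 65.3 and 63.0 TPM in *bam* RNAi; *aramis* RNAi and 84.0 and 82.0 TPM in *bam* RNAi. The genotypes did not overlap, and the difference between genotypes was larger than that between replicates. The log2 fold change was -0.25 (SE 0.08, edgeR adjusted p = 0.0338), the smallest of the called changes. It was not called by DESeq2 (adjusted p = 0.162) or without the filter on low counts (adjusted p = 0.0599). It was also not called with any 1 of the 4 libraries left out (adjusted p = 0.0738 to 0.147). The mRNA level of *Hsf* does not give its activity, which is set largely by trimerization of the protein.

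The scale on which these changes are read matters, because the germline markers fell with the developmentally expressed genes. With libraries brought to the same geometric mean of 15 germline markers, the median log2 fold change of all genes moved by 1.52, and all members that had been lower were positive: *Hsp26* was at 0.26 (SE 0.12, edgeR adjusted p = 0.0778), *Hsp27* at 0.21 (SE 0.12, adjusted p = 0.112), *Hsp68* at 0.66 (adjusted p = 0.0239), *Hsp83* at 0.74 (SE 0.13, adjusted p = 5.5e-04) and *Hsf* at 1.27 (adjusted p = 2.2e-06). Thus *Hsp83*, *Hsp68* and *Hsf* fell less than the mean of the germline markers, and for *Hsp26* and *Hsp27* a difference from that mean was not called. On this scale 6 of the 8 members tested were called, all higher, where 91.0% of all genes were called in either direction, 89.5% higher and 1.44% lower. In these p-values the scaling has no error of its own, although single markers ran from -2.59 to 0.47 under TMM. Relative to the median of all genes, a reading that a shift common to all genes leaves as it is by construction, *Hsp26* was at -1.25 and *Hsp83* at -0.76. What part of the change in a heat-shock gene goes with a changed share of germline cells or of egg chambers was not tested.

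**Figure D3:**
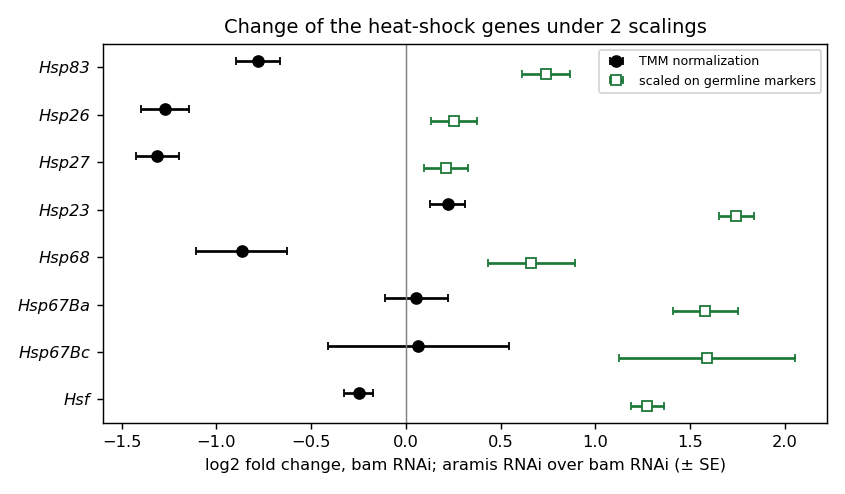
Log2 fold change of 8 heat-shock genes, *bam* RNAi; *aramis* RNAi over *bam* RNAi, with bars of 1 SE (edgeR, 2 libraries each). Filled points use TMM normalization and open squares scale the libraries on 15 germline markers. *Hsp26*, *Hsp27*, *Hsp83*, *Hsp68* and *Hsf* were below 0 under TMM and above 0 on the germline scale, where *Hsp26* (0.26) and *Hsp27* (0.21) lay nearest to 0.

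Within a genotype, replicates differed more for some members than for others. In *bam* RNAi, replicate 2 had 2.71 times the CPM of replicate 1 for *Hsp67Bc* (95% exact counting interval 1.71 to 4.45) and 1.47 times for *Hsp68* (1.33 to 1.61). For *Hsp83* the same ratio was 0.893 (0.880 to 0.907), and for *Hsf* 1.02 (0.948 to 1.11). The ratio for the developmentally expressed *Hsp26* was 1.21 (1.15 to 1.27) and for *Hsp27* 1.07 (1.02 to 1.13). For the heat-inducible *Hsp23* it was 1.16 (1.08 to 1.25). In *bam* RNAi; *aramis* RNAi, *Hsp68* again differed by 1.44-fold (1.25 to 1.67), while *Hsp67Bc* was at 0.793, with an interval that included 1. These intervals cover counting error only and describe the 2 libraries compared.

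The 6 *Hsp70* genes, the classical heat-induced chaperone genes, were read as a sum as well, because they are near-identical copies and reads could be split among them in ways the sources used here do not describe. Together they had 118 and 152 counts in *bam* RNAi; *aramis* RNAi and 304 and 752 counts in *bam* RNAi. This corresponds to 9.93 and 12.2 CPM in *bam* RNAi; *aramis* RNAi, against 25.2 and 56.3 CPM in *bam* RNAi, or at most 54.6 TPM in any library, far below *Hsp83*. As listed, and subject to that split, *Hsp70Bb* had 62 and 72 counts in *bam* RNAi; *aramis* RNAi and 257 and 557 counts in *bam* RNAi. The log2 fold change of the *Hsp70Bb* counts was -2.32 (SE 0.34, edgeR adjusted p = 0.00180), and it was also lower on the germline scale, at -0.79 (adjusted p = 0.0386). The counts listed for the other 5 copies summed to 56 and 80 counts in *bam* RNAi; *aramis* RNAi and 47 and 195 counts in *bam* RNAi, and the groups overlapped. *Hsp70Aa*, *Hsp70Ab* and *Hsp70Bc* were not called (edgeR adjusted p = 0.270, 0.574 and 0.112), with *Hsp70Bc* at -1.80 and, without *bam* RNAi replicate 2, at 0.01, and *Hsp70Ba* and *Hsp70Bbb* did not pass the filter on low counts. In *bam* RNAi, replicate 2 was above replicate 1 for *Hsp70Bc* by 5.96 times (95% exact counting interval 3.56 to 10.6) and for *Hsp70Bb* by 1.96 times (1.69 to 2.28). This was again the library in which the egg chamber markers were high, and their part in it was not tested.

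**Figure D4:**
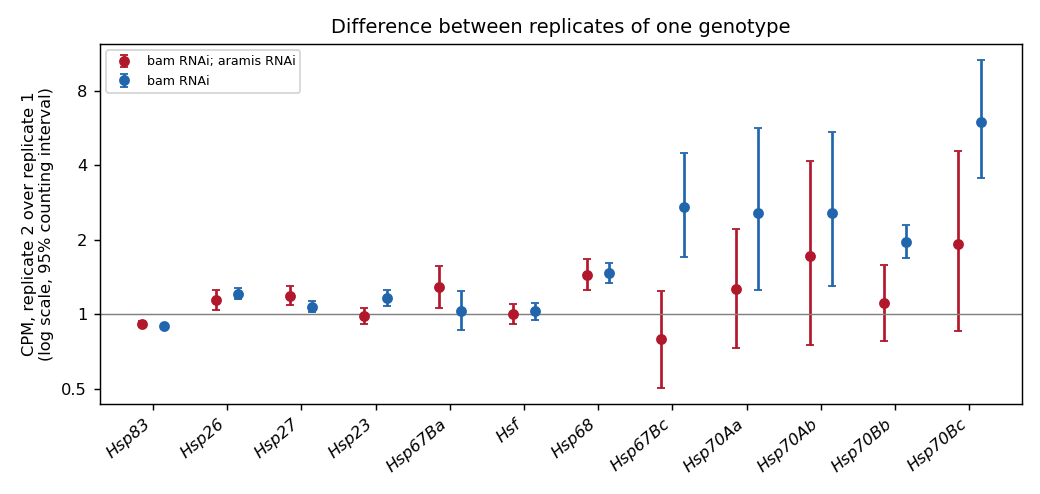
CPM of replicate 2 over replicate 1 within *bam* RNAi; *aramis* RNAi (red) and within *bam* RNAi (blue), on a log axis with 95% exact intervals that cover counting error only. *Hsp83*, *Hsf*, *Hsp23*, *Hsp26* and *Hsp27* ran from 0.893 to 1.21 in both genotypes. Larger ratios in *bam* RNAi were those of *Hsp67Bc* (2.71), *Hsp68* (1.47), *Hsp70Aa* (2.55), *Hsp70Ab* (2.56), *Hsp70Bb* (1.96) and *Hsp70Bc* (5.96).

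Other chaperones were read from a list of 35 genes, of which 28 passed the filter on low counts. Of these 28, 9 fell, 5 rose and 14 were not called under TMM normalization (median log2 fold change -0.11), against 25.0% lower and 25.4% higher among all genes, and on the germline scale 25 were higher and 1 (*Hsp70Bb*) lower, against 89.5% higher and 1.44% lower among all genes on that scale. Without *bam* RNAi replicate 1, and likewise without replicate 2, 5 of the list were called, namely *stv* and *DnaJ-H* (higher) and *Hsp70Bb*, *Hsp60A* and *CG1416* (lower); the calls of the other genes were lost in both cases. Over all genes, calls dropped to 1461 without replicate 1 and 1243 without replicate 2, against 4590 with all libraries. Genes that lost their call could keep the size of their change: *l(2)efl* was at 0.86 and 0.82 in these 2 fits and *Stip1* at -0.63 and -0.68.

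Among the partners of *Hsp83* chosen to be named, *Stip1* and *CG1416* were called lower under TMM and *p23*, *Cdc37* and *Hsc70-4* were not called (edgeR), and differences between these genes were not tested. *Stip1*, the cochaperone that hands clients from Hsp70 to Hsp90, had 336 and 355 TPM in *bam* RNAi; *aramis* RNAi and 618 and 569 TPM in *bam* RNAi. Its log2 fold change was -0.65 (SE 0.09, edgeR adjusted p = 0.00166) under TMM and 0.87 on the germline scale. *CG1416*, related to the Hsp90 activator Aha1, was at 163 and 146 TPM in *bam* RNAi; *aramis* RNAi and 269.6 and 247 TPM in *bam* RNAi, with a log2 fold change of -0.62 (SE 0.07, adjusted p = 7.8e-04) under TMM and 0.90 on the germline scale. The cochaperone *Cdc37* was at -0.13 (edgeR adjusted p = 0.192). The cochaperone *p23* was at -0.26 (edgeR adjusted p = 0.0561), and it was called lower by DESeq2 (adjusted p = 0.0468) and without *bam* RNAi; *aramis* RNAi replicate 2 (-0.33, edgeR adjusted p = 0.0348). The constitutive Hsp70 family member *Hsc70-4*, the most abundant chaperone of the list, had 4560 and 3948 TPM in *bam* RNAi; *aramis* RNAi and 4616 and 4113 TPM in *bam* RNAi, and was not called (0.08, SE 0.12, adjusted p = 0.586). The ratio of *Hsp83* to *Hsc70-4* was 0.261 and 0.266 in *bam* RNAi; *aramis* RNAi, against 0.490 and 0.468 in *bam* RNAi.

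*Hsp60A*, the chaperonin that folds proteins imported into the mitochondrial matrix, had 287 and 282 TPM in *bam* RNAi; *aramis* RNAi and 515 and 470.2 TPM in *bam* RNAi, a log2 fold change of -0.67 (SE 0.08, edgeR adjusted p = 9.4e-04) under TMM and 0.85 on the germline scale. Its lid subunit, *CG11267* (Hsp10), was at -0.77 (SE 0.10, adjusted p = 0.00134) under TMM and 0.76 on the germline scale.

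The largest rises among the called genes of the list were *stv*, *CG14207*, *l(2)efl* and *DnaJ-H*. *stv* encodes Starvin, the BAG-domain cochaperone that maintains muscle, and had 186 and 179 TPM in *bam* RNAi; *aramis* RNAi and 90.2 and 99.8 TPM in *bam* RNAi. Its log2 fold change was 1.07 (SE 0.09, edgeR adjusted p = 3.7e-04). The small heat-shock protein genes *CG14207* and *l(2)efl* were at 0.86 (SE 0.19, adjusted p = 0.00903) and 0.84 (SE 0.14, adjusted p = 0.00304), and the Hsp40 gene *DnaJ-H* at 0.75 (SE 0.11, adjusted p = 0.00164). *l(2)efl* had 351 and 435 TPM in *bam* RNAi; *aramis* RNAi and 249 and 231 TPM in *bam* RNAi, comparable to *Hsp23*. Beside these values, the 8 muscle sheath markers were between 0.90 and 1.06, with a summed level of 33720.1 to 41664 CPM in *bam* RNAi; *aramis* RNAi and 20991 to 23973 CPM in *bam* RNAi, and their part in the rises was not tested.

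**Figure D5:**
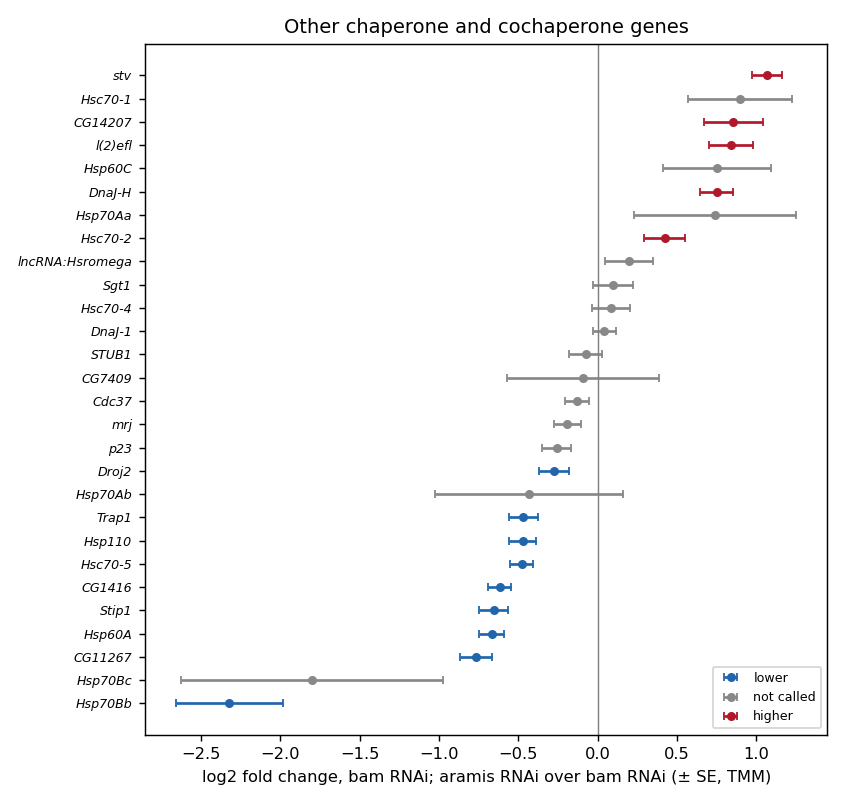
Log2 fold change of the 28 other chaperone genes that passed the filter on low counts, *bam* RNAi; *aramis* RNAi over *bam* RNAi under TMM normalization, with bars of 1 SE. Colours mark genes called higher (5), called lower (9) or not called (14) at an adjusted p under 0.05 (edgeR). *stv* (1.07) and *Hsp70Bb* (-2.32) were at the ends; on the germline scale all called genes but *Hsp70Bb* were positive.

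Genes of the endoplasmic reticulum and of general stress signalling were listed as a further comparison. Of 22 listed, 20 were measured and passed the filter. Of these 20, 7 rose, 2 fell and 11 were not called (median log2 fold change 0.02), against 25.4% higher and 25.0% lower among all genes, and all 20 were called higher on the germline scale, where 89.5% of all genes were. *Thor*, the translation inhibitor 4E-BP and a target of stress transcription factors, had 1501 and 1221 TPM in *bam* RNAi; *aramis* RNAi and 693 and 567 TPM in *bam* RNAi, a log2 fold change of 1.23 (SE 0.11, edgeR adjusted p = 3.7e-04). *GstD1*, a glutathione transferase induced by oxidative stress, was at 0.91 (adjusted p = 8.9e-04), the stress kinase gene *p38a* at 0.86 (adjusted p = 0.00119) and catalase (*Cat*) at 0.68 (adjusted p = 0.00221). Beside these rises, the hemocyte and fat body markers (5 of 6 higher, median 1.68) and the muscle sheath markers (8 of 8 higher, median 0.95) were also higher, and their part was not tested. *Hsc70-3*, the Hsp70 of the endoplasmic reticulum, and *PEK*, a kinase that senses unfolded protein there, were lower under TMM, at -0.35 (adjusted p = 0.0440) and -0.29 (adjusted p = 0.0192). *Hsc70-3* was not called with RLE normalization (adjusted p = 0.0518) or without the filter on low counts (adjusted p = 0.0641), and *PEK* was not called by DESeq2 (adjusted p = 0.0808). Without *bam* RNAi replicate 1, 3 genes of this list were called (*Thor*, *p38a* and *GstD1*), and without replicate 2, 2 were called (*Thor* and *p38a*).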

How the data were processed

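The authors deposited, per sample, whole-number read counts on 17023 FlyBase genes, without normalization. The submitters' processing notes name HISAT2 2.1.0, featureCounts 1.4.6, DESeq2 1.24.0 and build dm6. The annotation release, the strand setting and the treatment of multiply mapped or overlapping reads are not given in the sources used here. Libraries were poly(A)-selected and directional, with RNA fragmented for 13 min. Groups were taken from the sample titles.

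Symbols, positions and exon lengths came from Ensembl release 115 (BDGP6, dm6 coordinates), matched by identifier for 16647 genes. TPM was calculated here from the counts and the union of exons, without the other 376 genes, which held 6.14% to 6.32% of all counts. List genes were matched by symbol, or by synonym where the symbol had changed. *Pdi*, *Hsbp1* and *wupA* were not analysed here. No sequences were used.

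Counts were tested with edgeR 4.0.16 in R 4.3.3 (TMM, filter with a minimum count of 10, quasi-likelihood test, all 4 libraries, no replicate block), with Benjamini-Hochberg adjustment over 9115 genes. Standard errors are those implied by the F statistic. The code was tested on simulated data. As alternatives, DESeq2 1.42.0 was run, and edgeR was run with RLE normalization, without the filter, with a block for the replicate number, without each library in turn, without the 20 most abundant genes, and with scaling on 15 germline markers (geometric mean of counts). Ratios were also taken with the longest transcript, with CPM and without members whose exons overlap another gene. Tables were handled in Python 3.11.15 with pandas 2.3.3. Replicates of a genotype were not copies of the same library (chi-square over its degrees of freedom, 15.4 for *bam* RNAi; *aramis* RNAi and 27.2 for *bam* RNAi). These values do not show whether replicates came from separate flies or from the same RNA. Each library was counted as a sample.

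All 9 members are named. From the lists, the *Hsp70* copies, the partners of *Hsp83*, genes overlapping a member and, for each list and direction, up to 4 called genes with the largest change are named. The members and lists were chosen with earlier results of these data known.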

Additional observations from a re-analysis of the deposited data

How the results depend on the processing

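The 5 members called stayed lower and called with RLE normalization and without the 20 most abundant genes, and *Hsp26*, *Hsp27*, *Hsp68* and *Hsp83* also did with DESeq2, without the filter on low counts and with the replicate number as a block. *Hsf* was not called in these last 3 fits (with the block, adjusted p = 0.0501). The block left 4 members, 14 genes of the chaperone list and 4430 of all genes called, against 4590 without it. It called *Hsp70Bc* lower (-1.57, adjusted p = 0.0390). With the block, *Hsp68* had an SE of 0.10 (edgeR adjusted p = 0.00134), against 0.24 without it. The deviations of libraries with equal replicate numbers had a correlation of 0.04 across all genes tested. Among the members, *Hsp26*, *Hsp27*, *Hsp67Ba*, *Hsp68* and *Hsp83* deviated in the same direction in both genotypes. *Hsp23*, *Hsp67Bc* and *Hsf* deviated in opposite directions. For *Hsp68*, replicate 2 over replicate 1 was 1.44 in *bam* RNAi; *aramis* RNAi and 1.47 in *bam* RNAi. Whether the replicate numbers pair the libraries was not tested.

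With 1 library left out, the lone library of a genotype is assumed to vary like the other genotype. Members called then ran from 2 (*Hsp26* and *Hsp27*, without *bam* RNAi replicate 1) to 4 (without *bam* RNAi; *aramis* RNAi replicate 2), with 3 without either of the others; the chaperone list ran from 5 to 13, the endoplasmic reticulum and stress list from 2 to 8, and all genes from 1243 to 3715. Among genes not called, *Hsp67Ba* ran from -0.16 to 0.26 and *Hsp67Bc* from -0.48 to 0.96.

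Scaling on germline markers called 6 members, all higher, 26 genes of the chaperone list, 20 of the endoplasmic reticulum and stress list and 8293 of all genes, 8162 of them higher. It turned the sign of *Hsp26* (0.26), *Hsp27* (0.21), *Hsp68* (0.66), *Hsp83* (0.74), *Hsf* (1.27), *ais* (0.15) and *bam* (0.90) by shifting all genes alike. On this scale *bam* was not called (edgeR adjusted p = 0.0807). The developmental to heat-inducible ratio was 8.79 in *bam* RNAi; *aramis* RNAi and 15.2 in *bam* RNAi with CPM, which is not divided by length. It was 0.58 in *bam* RNAi; *aramis* RNAi and 1.64 in *bam* RNAi without members whose exons overlap another gene, which leaves only *Hsp26*, *Hsp23* and *Hsp67Bc*. The longest transcript as length could not move it, since it equals the union of exons for these genes. *Hsp22*, with 0 counts and all of its exon bases shared with *CG4456*, could not be tested.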
